A study of Mus musculus with 2 samples.

Results

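The genes described here encode the proteins of the cytosolic ribosome, and they were taken by name: symbols that begin with Rpl or Rps and a digit, together with Rplp0, Rplp1, Rplp2 and Rpsa. Kinases named Rps6k (10 genes) and symbols that hold "-ps" (5 genes) were left out. The rule gave 86 of the 32285 genes listed in the files, 34 of the small subunit by symbol and 52 of the large subunit. Of these, 77 were core subunit genes and 9 were like-named paralogs or, for Rps19bp1, a binding protein of Rps19 that is not itself a ribosomal protein.

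The study asked how aortic leukocytes respond to ZnDPA@siIRF5, a preparation whose name joins ZnDPA to a short silencing RNA (siRNA) directed at Irf5, which encodes a transcription factor of inflammatory macrophages. Mouse aortic leukocytes positive for CD45, a surface protein of white blood cells, were profiled by 10x droplet sequencing of transcript 3′ ends in 2 libraries. The first came from the ZnDPA@siIRF5-treated group and the second from the control group. The labels name no genotype, diet, sex, age, number of animals or control preparation, and give 1 library to each group. No difference between the libraries could therefore be tested, and differences between animals, dissections, captures and treatment cannot be told apart. All intervals are 95% intervals for counting error only.

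A ribosome joins a small subunit, which reads the messenger RNA, to a large subunit, which forms the peptide bonds. Each subunit holds ribosomal RNA and a fixed set of proteins, and most of these proteins are present in a single copy. Their messenger RNAs are among the most abundant of a cell. In vertebrates they begin with a terminal oligopyrimidine (TOP) tract, a C followed by a run of C and T, through which growth signals that pass by mTOR and Larp1 govern translation of the whole set. Naive lymphocytes keep large stores of these messages. Mature neutrophils, which arise from dividing granulocyte precursors, make little new protein, and plasma cells devote their messages to antibody.

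The TOP tract can be read in the sequences around the start of some of these genes. RefSeq promoter windows of the build GRCm38.p6, from 250 bases before to 50 bases after each annotated start, matched 66 of the 86 genes by symbol. A tract of C followed by at least 4 C or T, placed exactly at an annotated start on the gene's strand, was found in 13 of the 57 core genes matched (22.8%), against 3.01% of all 27025 genes of the table. When the tract could begin anywhere within 20 bases of the start, the counts were 46 of 57 core genes (80.7%) and 53.3% of all genes. Read on both strands of the whole window, GGGCGG was present in 61.4% of the core genes matched and 38.2% of all genes, CCGGAAG in 42.1% and 9.93%, GATGGCGG in 3.51% and 1.97%, and TATAAA in 10.5% and 15.7%. These are matches of letters, and a window without them says nothing about a factor. Below are 60 bases around the start of 8 genes that the results turn on, 5′ to 3′ on the gene's strand, with 20 bases before the annotated start and the tract at the start in capitals. Rps6, Rpl35, Rps27 and Rpl38 took a larger share of the ribosomal protein UMIs in the ZnDPA@siIRF5 library in 12 of 12 cell classes. Rps15a and Rpl15 took a smaller one in 12 of 12. Other genes with such a shift have no tract at the start in their windows and are not shown. These are Rpl37a, Rps13, Rps23 and Rpl26, with a larger share in 12 of 12, and Rps4x, with a smaller one. Whether the tract goes with the shift was not tested. Rps9 and Rpl36al differed most between cell classes along with Rps27l and have no tract at the start given.
Rps6, chr4:86857328-86857387, minus strand: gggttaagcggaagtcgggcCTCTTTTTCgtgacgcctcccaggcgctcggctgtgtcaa
Rpl35, chr2:39005092-39005151, minus strand: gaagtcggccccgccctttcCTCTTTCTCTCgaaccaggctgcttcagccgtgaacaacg
Rps27, chr3:90213609-90213668, minus strand: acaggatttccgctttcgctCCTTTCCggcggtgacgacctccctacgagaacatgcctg
Rpl38, chr11:114668560-114668619, plus strand: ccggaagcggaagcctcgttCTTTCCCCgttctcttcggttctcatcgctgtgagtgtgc
Rps15a, chr7:118116108-118116167, minus strand: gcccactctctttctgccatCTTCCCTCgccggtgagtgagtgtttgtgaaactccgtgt
Rpl15, chr14:18270947-18271006, minus strand: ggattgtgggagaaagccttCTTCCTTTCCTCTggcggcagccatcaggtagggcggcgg
Rps9, chr7:3704021-3704080, plus strand: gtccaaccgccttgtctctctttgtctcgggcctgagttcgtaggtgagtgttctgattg
Rpl36al, chr12:69184028-69184087, minus strand: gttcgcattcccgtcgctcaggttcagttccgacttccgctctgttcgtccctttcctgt

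The deposited values were UMI counts, in which each unique molecular identifier stands for 1 captured transcript molecule. Barcodes with at least 500 genes and at most 15% mitochondrial (mt-) UMIs were used, which left 12466 of 13155 barcodes in the ZnDPA@siIRF5 library and 12038 of 12516 in the control library. The libraries held 77856529 and 88567528 UMIs, and 45 barcode sequences occurred in both, 38 of them among the barcodes used. Irf5 stood at 122 CPM (UMIs scaled to a class total of 1e6) in macrophage-like cells of the ZnDPA@siIRF5 library and 111 CPM in those of the control library, a log2 ratio of 0.14 (0.03 to 0.25), so this check did not show a lower level in the library labelled as treated.

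Over all barcodes used, the 86 genes made up 13.8% of the UMIs in the ZnDPA@siIRF5 library and 13.9% in the control library. The median barcode held 11.4% and 13.9%. The libraries differed in their mix of cells: immunoglobulin genes took 5.73% of UMIs in the ZnDPA@siIRF5 library and close to 16% in the control library. With immunoglobulin UMIs left out of the total, the ribosomal protein share was 14.7% and 16.6%. Each cell class was also given the same weight in both libraries, namely its UMIs over both, with doublet calls left out. The ribosomal protein share was then 14.3% and 13.7%, so the whole-library difference had the other sign under these shared weights.

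Classes were built by clustering cells without the 86 genes and were named from marker genes, so the classes made no use of the levels compared. Scrublet doublet calls (661 and 515 of the barcodes used) were left out of them. The 12 classes with at least 100 cells in each library spanned a wide range of ribosomal protein share. T cell-like and B cell-like cells had the highest shares of the 12, while some other lymphoid classes overlapped with myeloid ones. T cell-like cells held 23.9% in the ZnDPA@siIRF5 library and 23.5% in the control library, and B cell-like cells held 24.2% and 22.6%. Type 2 innate lymphoid (ILC2)-like cells held 19.8% and 18.7%, natural killer (NK) cell-like cells 17.2% and 16.3%, and gamma delta T cell-like cells 15.1% and 14.5%.

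The remaining classes, the myeloid ones and plasma cell-like cells, spanned a wide range. Granulocyte precursor-like cells held 16.3% in the ZnDPA@siIRF5 library and 16.6% in the control library, conventional type 1 dendritic (cDC1)-like cells 16.3% and 15.3%, and a second dendritic (DC) class, the Cd209a cluster, 15.5% and 14.8%. That cluster was led by Cd209a, a marker of type 2 conventional dendritic cells, and scored high for that type and for migratory dendritic cells, so it is called by its leading gene. At a finer resolution 451 and 196 cells led by Cd209a parted from 65 and 52 cells led by Fscn1, of migratory dendritic cells. Monocyte-like cells held 12.2% and 12.1%, and macrophage-like cells 9.15% and 9.01%. Plasma cell-like cells held 8.75% and 7.65%, in cells where immunoglobulin UMIs were 52.4% and 53.3% of the total. Without immunoglobulin UMIs their share was 18.4% and 16.4%. Neutrophil-like cells held 2.69% and 2.81%, the lowest of the 12 classes in both libraries.

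**Figure D1:**
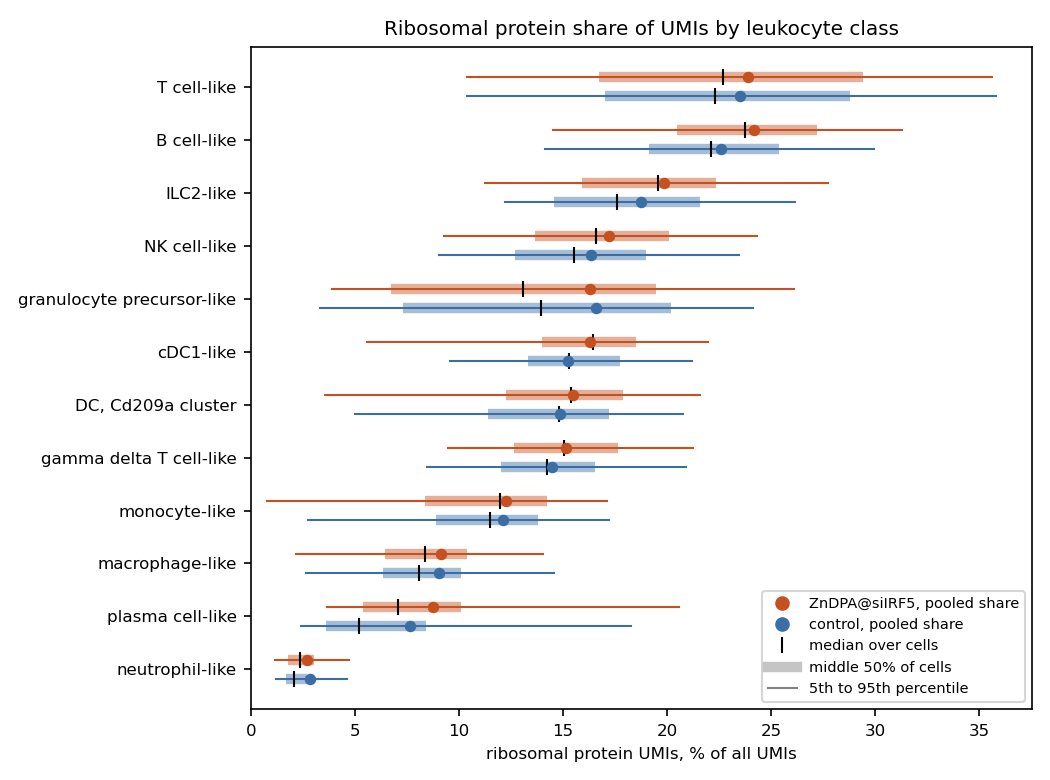
Ribosomal protein UMIs as a percentage of all UMIs in the 12 classes, with the ZnDPA@siIRF5 library above the control library in each pair. Dots are pooled shares, black marks are medians over cells, thick bars the middle 50% of cells and thin bars the 5th to 95th percentile of cells. Pooled shares of T and B cell-like cells lie between 22.6% and 24.2% and those of neutrophil-like cells below 3%, and the 2 libraries overlap in every class.

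In molecules per cell the order was different. The median neutrophil-like cell held 52 ribosomal protein UMIs in the ZnDPA@siIRF5 library and 52 in the control library, out of 2165 and 2373 UMIs in all. The median macrophage-like cell held 504 and 481, the median T cell-like cell 1083 and 963, and the median plasma cell-like cell 1298 and 895.5, out of 18707.5 and 17763 UMIs in all. Plasma cell-like cells thus had more ribosomal protein molecules per cell than macrophage-like cells at a similar or lower share. Smaller classes had under 100 cells in a library and are given as values only: germinal centre B cell-like cells held 22.2% (71 cells) and 21.1% (355 cells), plasmacytoid dendritic-like cells 13.4% and 12.1%, fibroblast-like cells 13.7% and 11.1%, and mast cell-like cells 4.70% and 5.59%. A pair of clusters that no marker list named held 10.8% and 11.5%, and 14.4% and 13.8%.

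The spread within some classes was larger than most differences between them. Among T cell-like cells, the cluster led by Sidt1 and Lef1, the second a transcription factor of naive T cells, held 30.01% in the ZnDPA@siIRF5 library and 29.1% in the control library. The cluster led by Gzmk, a granzyme of effector and memory CD8 T cells, held 21.3% and 21.6%. The cluster led by Tnfrsf4, a costimulatory receptor that is high on regulatory and activated T cells, held 16.9% and 16.6%. The cycling T cell-like cluster, with cell cycle markers high, held 17.9% and 18.6%. Its median cell carried 1715 and 2165.5 ribosomal protein UMIs, beside 1901.5 and 1553 in the Lef1 cluster. That was lower in the ZnDPA@siIRF5 library and higher in the control library. The cycling cluster was also deeper, with medians of 9904 and 12347.5 UMIs in all, against 6103 and 5199.5 in the Lef1 cluster.

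Granulocyte precursor-like clusters lay above the neutrophil-like clusters. The cluster led by Ctsg, Mpo and Elane, primary granule proteins of early precursors, held 18.8% in the ZnDPA@siIRF5 library and 20.2% in the control library. The cluster led by Camp and Fcnb, proteins of later granules, held 7.28% and 11.3% in 45 cells of each library. The neutrophil-like cluster led by Ltf and Ngp, which still expressed later granule genes, held 2.78% and 2.85%, and the clusters led by Cstdc4 and by Hcar2 held 2.38% and 2.64%, and 3.01% and 3.02%. The median cell held 2064 and 3025.5 ribosomal protein UMIs in the Mpo cluster, and 45 and 46 in the Hcar2 cluster. The order of clusters along granule markers is a description, since no lineage was traced.

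Plasma cell-like cells were of 2 kinds. The cycling cluster, led by Rrm2, held 19.9% in the ZnDPA@siIRF5 library (28 cells) and 16.9% in the control library (184 cells). The larger cluster, led by immunoglobulin genes, held 7.62% (374 cells) and 5.33% (1056 cells). Macrophage-like cells of the Trem2 and Spp1 cluster, genes of lipid-laden macrophages, held 9.70% and 9.92%, and those of the Lyve1 and Folr2 cluster, genes of resident macrophages, held 8.43% and 8.05%.

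**Figure D2:**
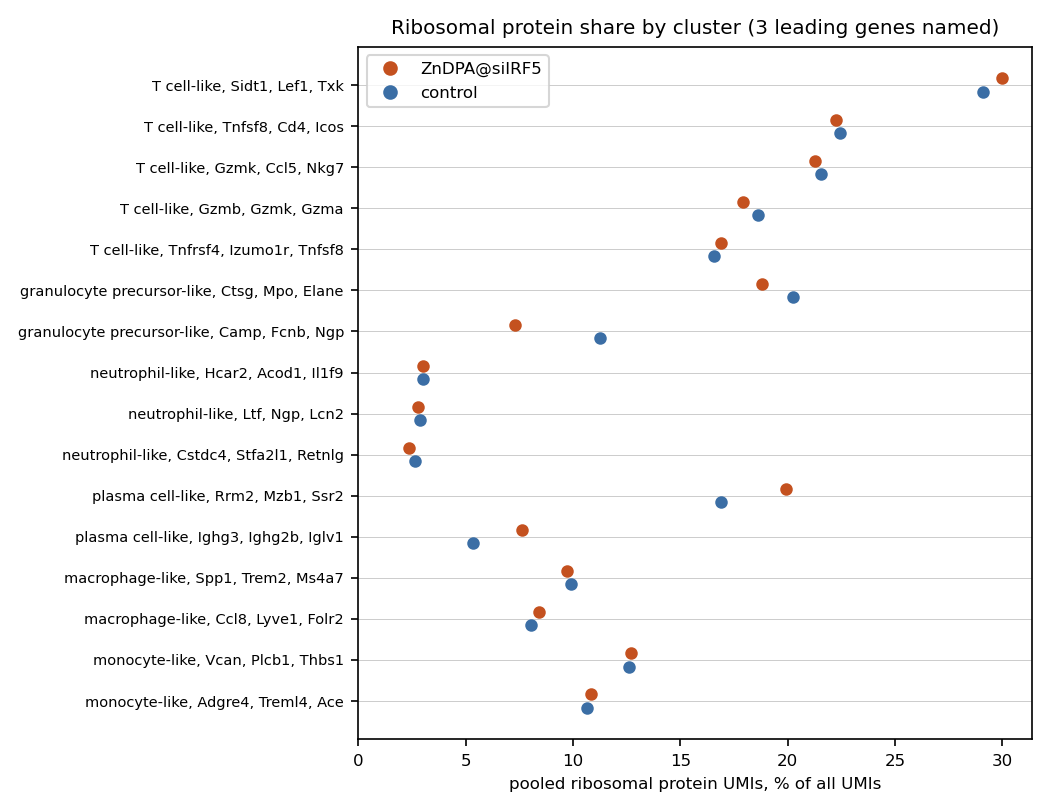
Pooled ribosomal protein share of UMIs (x axis, percent) in each cluster of 6 classes, named on the y axis by class and 3 leading genes; orange dots are the ZnDPA@siIRF5 library and blue dots the control library. Clusters of 1 class differ by more than the libraries do in T cell-like, granulocyte precursor-like and plasma cell-like cells.

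Within a class the share also moved with depth. In macrophage-like cells with fewer than 2000 UMIs it was 5.18% in the ZnDPA@siIRF5 library and 5.12% in the control library, and in those with at least 16000 UMIs it was 11.1% and 10.5%. In T cell-like cells it was highest, at 26.1% and 26.5%, between 4000 and 8000 UMIs. Barcodes that the filters removed held less: 3.57% and 5.43% with under 500 genes, and 2.88% and 5.07% among the others, with over 15% mt- UMIs. The part of depth in the class values was not tested beyond the alternatives given in the closing section.

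Levels between genes are compared here without dividing by transcript length, because 3′ UMIs count molecules. Of the 86 genes, 1 had no UMI: Rpl10l, a paralog of Rpl10 used in the mouse testis, was at 0 in both libraries. Over all barcodes used, Rps24, a small subunit protein, was the most abundant at 3934 CPM in the ZnDPA@siIRF5 library and 3892 CPM in the control library. It was followed by Rps15a (3407 and 3611 CPM), Rpl23 (3304 and 3407 CPM), Rplp1 of the acidic stalk that recruits elongation factors (3269 and 3312 CPM) and Rpl13 (3050 and 3242 CPM). Rps4x, Rps3a1, Rps16 and Rpsa, which is also known as the laminin receptor, were also among the first 10, and the first 10 genes together took 21.8% of ribosomal protein UMIs in the ZnDPA@siIRF5 library and 22.9% in the control library. Even the most abundant of them was thus a few per cent of the module.

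The composition of the module was close to constant outside neutrophil-like cells. Each gene was expressed per 1000 ribosomal protein UMIs of its class, which removes the differences in total share. In 81 genes measured in every class (at least 50 UMIs in 1 library), the highest class exceeded the lowest by a median of 1.66-fold, with a range of 1.24 to 7.72-fold and 26 genes above 2-fold. Across the 77 core genes, Spearman's rho of this composition between a class and each of the others had a median of 0.882 to 0.935 in 11 classes of the ZnDPA@siIRF5 library and 0.882 to 0.943 in those of the control library. For neutrophil-like cells that median was 0.726 and 0.795. Between the 2 libraries, rho of the same class was 0.98 or 0.99 in each of the 12 classes. These are correlations across genes, which are not independent replicates.

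The steadiest genes were Rps3, a small subunit protein at the messenger RNA entry site, Rps3a1, Rplp2 of the acidic stalk, and Rpl8 of the large subunit. Rps3 took 10.1 to 12.9 per 1000 in the 12 classes of the ZnDPA@siIRF5 library and 10.8 to 13.0 in those of the control library. Its neutrophil-like value, 11.95 and 12.1 per 1000, was inside the range of the other classes, as was that of Rplp2, at 11.7 and 11.4.

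Neutrophil-like cells had the lowest composition value of the 12 classes in 35 of the 81 genes and the highest in 16. Rps9, a small subunit protein that binds early in subunit assembly, took 66.6 per 1000 ribosomal protein UMIs there in the ZnDPA@siIRF5 library and 61.8 in the control library. In the other 11 classes it took 12.9 to 24.2 and 12.7 to 26.6, with monocyte-like cells next in order in both libraries. The neutrophil-like value stood apart from all others, and 1 gene supplied more than 6% of the ribosomal protein UMIs. In CPM of all UMIs the Rps9 level in neutrophil-like cells, 1790 and 1738, was close to that in macrophage-like cells, 1751 and 1767, while the module as a whole was lower there.

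Rps27a, which is made as a fusion with ubiquitin, took 47.1 per 1000 in neutrophil-like cells of the ZnDPA@siIRF5 library and 41.4 in those of the control library, against 14.4 to 23.7 and 14.8 to 23.8 in the other classes. Rps27, a zinc finger protein of the small subunit, took 28.5 and 22.0, against 7.27 to 16.8 and 5.80 to 13.9 elsewhere, with the lowest values in granulocyte precursor-like cells. Its retrogene copy Rps27rt took 1.94 and 1.91, against 0.541 to 1.19 and 0.471 to 1.29 elsewhere. The 2 transcripts are near-identical, and the sources used here do not say how their reads were shared, so the Rps27rt values are uncertain. Rpl37 of the large subunit, at 22.6 and 20.5 per 1000, was the fourth gene of this group, with 8.37 to 11.0 and 8.56 to 12.1 elsewhere.

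The genes at the other end were of both subunits. Rpl3, a large subunit protein near the peptidyl transferase centre, took 2.48 per 1000 in neutrophil-like cells of the ZnDPA@siIRF5 library and 3.61 in those of the control library, against 7.93 to 10.7 and 6.89 to 10.7 elsewhere. Rpl10a took 2.36 and 3.32, against 7.19 to 11.0 and 7.51 to 10.1. Rpl12, a stalk base protein, took 2.92 and 4.43, against 5.01 to 11.9 and 5.24 to 12.2, and its next lowest class was monocyte-like cells. Rps18, at 4.90 and 6.10 per 1000, was likewise below all the other classes, which held 11.4 to 15.3 and 10.2 to 13.8.

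**Figure D3:**
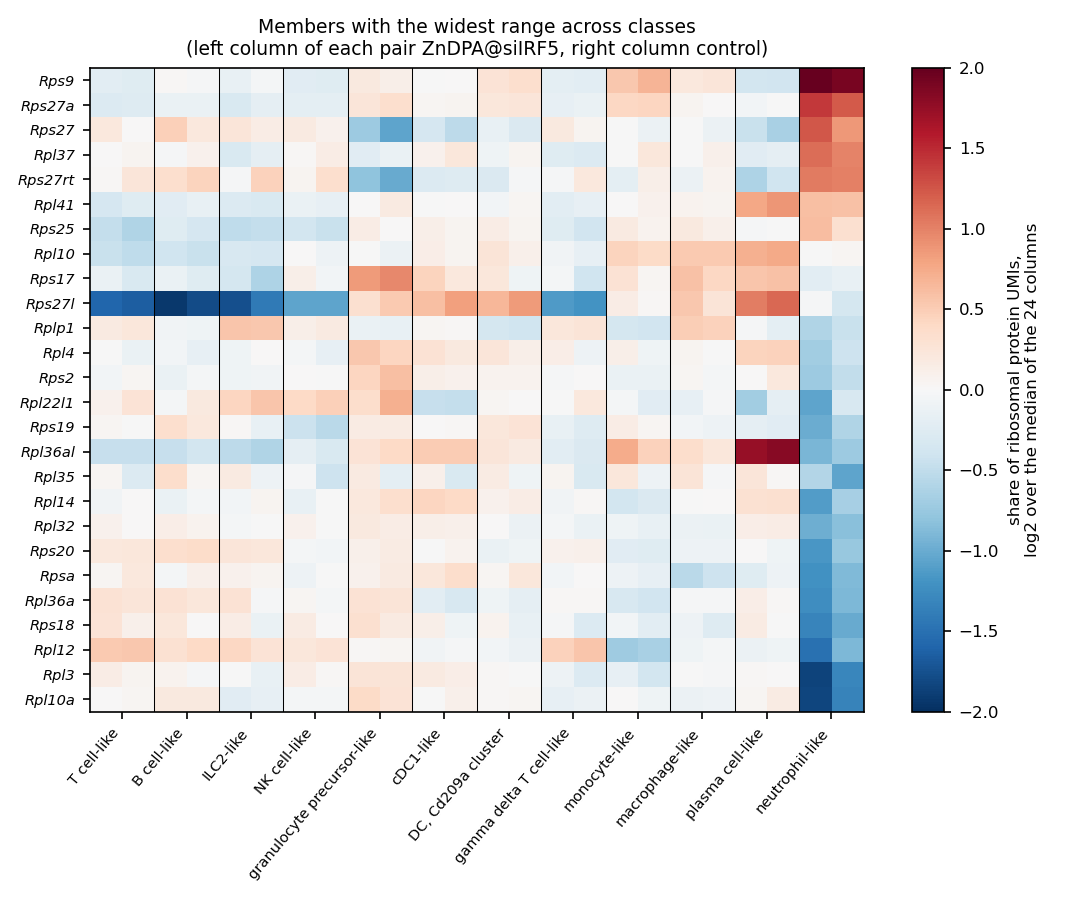
Share of ribosomal protein UMIs for the 26 genes with the widest range across classes (rows), on a log2 scale against the gene's median over the 24 columns; columns are the 12 classes, each with the ZnDPA@siIRF5 library left and the control library right, and colours end at -2 and 2. Within the neutrophil-like columns Rps9 has the deepest red and Rpl3 and Rpl10a the deepest blue.

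Neutrophil-like cells also carried RNA that marks other cells, more so in the control library. The 10 T cell markers summed to 34.0 CPM in the ZnDPA@siIRF5 library and 80.5 CPM in the control library, with Foxp3 at 0 in the control library. The 8 B cell markers summed to 32.6 and 101 CPM, with Fcer2a at 0 in the ZnDPA@siIRF5 library, and the 9 plasma cell markers to 138 and 299 CPM. In an alternative added after the data were seen, only cells with at most 1 UMI of these 3 lists were kept, 92.5% of the class in the ZnDPA@siIRF5 library and 72.3% in the control library. The composition was then further from that of the other classes: Rps9 took 71.9 and 79.0 per 1000, Rps27a 49.8 and 50.2, Rpl3 2.02 and 1.93, and Rpl10a 1.99 and 1.93.

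A myeloid gene lies beside Rps9. Rps9 lies at chr7:3703993-3706897 on the plus strand (GENCODE vM21, GRCm38), and Pirb, an inhibitory receptor of myeloid cells, at chr7:3711409-3720391 on the minus strand, 4512 bases beyond the end of Rps9. Pirb stood at 247 CPM in neutrophil-like cells of the ZnDPA@siIRF5 library and 312 CPM in those of the control library, at 226 and 291 CPM in monocyte-like cells, and at 13.49 and 11.4 CPM in B cell-like cells. The 2 classes with the highest Pirb level were those where Rps9 took the largest part of ribosomal protein UMIs. Macrophage-like cells came next for Pirb, at 175 and 186 CPM. Their Rps9 part was below that of DC of the Cd209a cluster, where Pirb stood at 121 and 112 CPM. The part of Pirb in the Rps9 counts was not tested.

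The balance of the subunits followed the same split. UMIs of small subunit genes over those of large subunit genes came to 1.011 (1.001 to 1.021) in neutrophil-like cells of the ZnDPA@siIRF5 library and 0.999 (0.986 to 1.01) in those of the control library. In the other 11 classes the ratio was between 0.816 and 0.911, and it was lowest in plasma cell-like cells, at 0.826 and 0.816. Without the 3 genes of each subunit with most UMIs in neutrophil-like cells (Rps9, Rps27a and Rps16, and Rpl9, Rpl23 and Rpl41), an alternative added after the data were seen, neutrophil-like cells stood at 0.877 and 0.883, within the 0.838 to 0.919 of the other classes.

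A pair of paralogs had the widest range of all, with plasma cell-like cells at the top. Rps27l, a paralog of Rps27 that is a known p53 target, took 4.83 per 1000 in plasma cell-like cells of the ZnDPA@siIRF5 library and 5.25 in those of the control library, and 3.77 and 4.27 in DC of the Cd209a cluster. In B cell-like cells it took 0.620 and 0.686, in T cell-like cells 0.786 and 0.756, and in ILC2-like cells 0.698 and 0.893. Its mean over the libraries was 7.72-fold higher in plasma cell-like than in B cell-like cells, the widest range of the 81 genes. Rpl36al, a copy of Rpl36a at another locus, took 12.3 and 13.0 per 1000 in plasma cell-like cells, against 1.97 to 6.17 and 2.23 to 5.25 in the other classes, with the lowest value in neutrophil-like cells. Rpl41, a peptide of the large subunit, was also high in plasma cell-like cells, at 30.2 and 32.3 per 1000, and next in neutrophil-like cells, at 26.8 and 26.5, against 14.01 to 18.4 and 14.3 to 19.99 elsewhere. In macrophage-like cells Rps29 was the gene that stood out, with 22.8 and 19.9 per 1000, against 12.1 to 18.6 and 10.9 to 16.6 in the other classes.

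**Figure D4:**
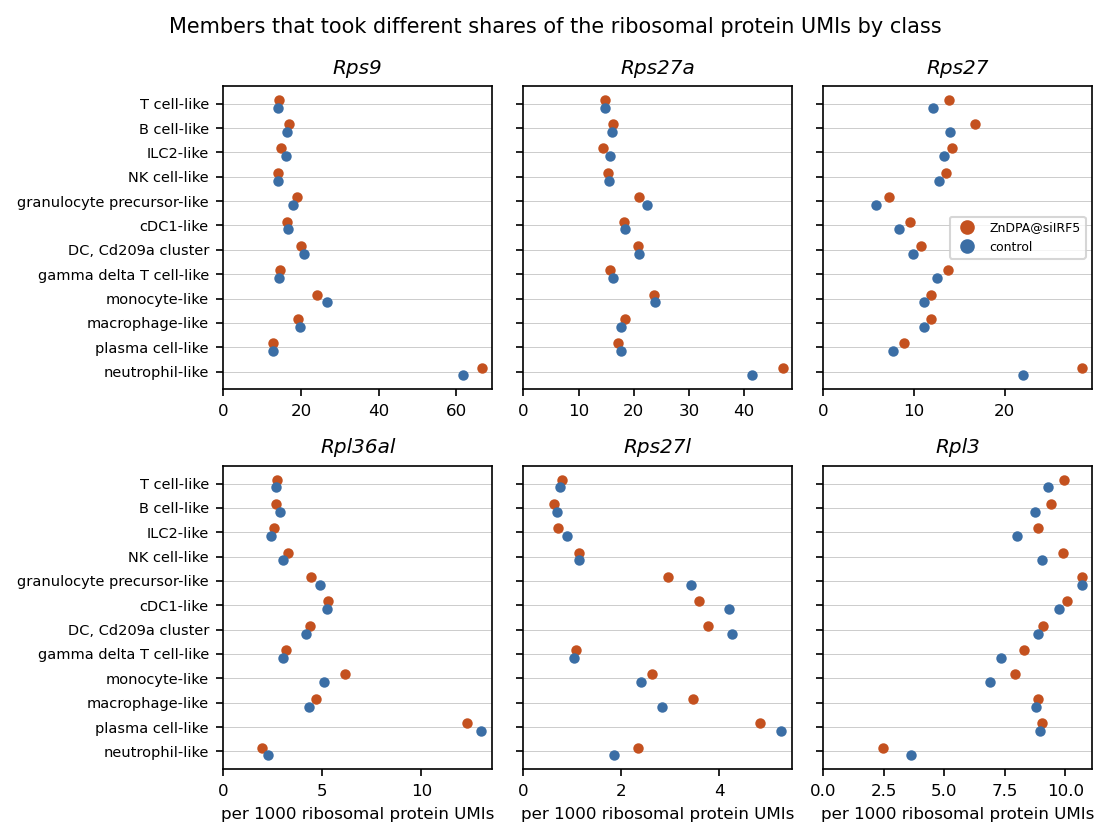
Genes by class, each on its own linear x axis in counts per 1000 ribosomal protein UMIs; orange dots are the ZnDPA@siIRF5 library, blue dots the control library. Rps9, Rps27a and Rps27 are highest and Rpl3 lowest in neutrophil-like cells, while Rpl36al and Rps27l are highest in plasma cell-like cells, in both libraries.

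The remaining paralogs were scarce. Rpl22l1, a paralog of Rpl22, took 1.44 to 4.03 per 1000 over the 12 classes of the ZnDPA@siIRF5 library and 2.15 to 4.92 over those of the control library. It was highest in ILC2-like cells of the ZnDPA@siIRF5 library and in granulocyte precursor-like cells of the control library. Rpl7l1, which acts in ribosome assembly, stood at 40.9 CPM over all barcodes used in the ZnDPA@siIRF5 library and 39.1 CPM in the control library, and Rps19bp1 at 20.1 and 22.2 CPM. Rpl3l, the striated muscle paralog of Rpl3, had 272 UMIs in all. It was found in monocyte-like cells, with 80 and 24 UMIs, and in neutrophil-like cells, with 64 and 28. Rpl39l, known from male germ cells, had 80 UMIs in all, of which 23 fell in the germinal centre B cell-like cells of the ZnDPA@siIRF5 library against 1 in those of the control library.

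Between the libraries, 10 of the 12 classes had a higher ribosomal protein share in the ZnDPA@siIRF5 library. The log2 ratio was 0.10 (0.09 to 0.10) in B cell-like cells, 0.09 in cDC1-like cells, 0.08 in ILC2-like cells, 0.07 in NK cell-like and gamma delta T cell-like cells and 0.06 in DC of the Cd209a cluster. It was 0.02 in T cell-like, monocyte-like and macrophage-like cells. Plasma cell-like cells had the largest, 0.19 (0.19 to 0.20). Granulocyte precursor-like cells were lower, at -0.02 (-0.03 to -0.02), and neutrophil-like cells at -0.07 (-0.08 to -0.05). In all 12 classes the libraries differed by less than the middle 50% of cells spanned, and the intervals hold no variation between animals.

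The neutrophil-like direction did not hold in cells with few foreign markers. With at most 1 UMI of the T cell, B cell and plasma cell lists, the share was 2.49% in the ZnDPA@siIRF5 library and 2.17% in the control library, and the median over all neutrophil-like cells was 2.34% and 2.06%. For plasma cell-like cells the cell mix mattered in size: without the cycling cluster, 93.03% of the class in the ZnDPA@siIRF5 library and 85.2% in the control library, the log2 ratio was 0.52. In those cells immunoglobulin genes took 56.1% and 61.8% of UMIs, and without immunoglobulin UMIs the share was 17.4% and 13.95% and the log2 ratio 0.32.

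Gene by gene, few members moved past 1.2-fold, and they are counted here against all genes with at least 50 UMIs and 20 CPM in 1 of the libraries. Most members had many more UMIs than that minimum, and scarce genes pass 1.2-fold more readily by counting error. The shares of members and of all genes are therefore not matched for abundance. In T cell-like cells 3 of 82 members were higher in the ZnDPA@siIRF5 library and 1 lower, against 7.17% and 7.65% of all genes. In B cell-like cells 7 of 83 were higher and 0 lower, against 7.81% and 14.9%. In ILC2-like cells 8 of 81 were higher and 2 lower, against 23.0% and 21.6%, and in NK cell-like cells 6 of 82 were higher and 0 lower, against 15.5% and 18.1%. In gamma delta T cell-like cells the counts were 7 of 83 and 0, against 15.3% and 15.3%. In these lymphoid classes the members' shares were at or below those of all genes, apart from the higher calls in B cell-like cells, at 8.43% of members.

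In the myeloid classes below, too, no share of members exceeded that of all genes. In cDC1-like cells 10 of 83 members were higher and 0 lower, against 22.2% and 11.4% of all genes. In DC of the Cd209a cluster the counts were 7 of 83 and 0, against 22.0% and 13.3%. Monocyte-like cells had 3 of 82 higher and 1 lower, against 12.7% and 11.2%. Macrophage-like cells had 6 of 83 higher and 0 lower, against 13.9% and 8.56%, with a median log2 ratio of 0.02 over members and 0.04 over all genes. Granulocyte precursor-like cells had 2 of 83 higher and 2 lower, against 38.3% and 13.2%.

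Plasma cell-like and neutrophil-like cells had the higher counts. In plasma cell-like cells 22 of 82 members were higher and 1 lower, against 17.3% and 14.3% of all genes, and the members' median was 0.18 beside 0.00 for all genes. Without the cycling cluster 79 of 82 were higher, beside 41.8% of all genes, and with immunoglobulin UMIs also left out 60 of 83 were higher, beside 18.9% of all genes. In neutrophil-like cells 4 of 81 members were higher and 19 lower, against 22.6% and 11.7% of all genes, with medians of -0.09 and 0.08. In the neutrophil-like cells with at most 1 UMI of foreign markers, 23 of 81 were higher and 1 lower, against 24.8% and 9.47% of all genes.

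Some members differed between the libraries in the same direction in every class. Of the 81 measured in all 12 classes, 11 (13.6%) had a higher CPM in the ZnDPA@siIRF5 library in 12 of 12 and 0 a lower one. Of the 1636 genes measured in all 12, the members among them, 3.91% were higher and 1.53% lower in 12 of 12. Most members had many more UMIs than the minimum of 50, and scarce genes change sign more readily by counting error. The shares of members and of all genes are therefore not matched for abundance here either. Per 1000 ribosomal protein UMIs, 10 members were higher in 12 of 12 classes and 5 were lower in 12 of 12. The higher ones were Rps6, Rps13, Rps14, Rps23, Rps27 and Rps29 of the small subunit and Rpl26, Rpl35, Rpl37a and Rpl38 of the large subunit. The lower ones included Rps4x and Rps15a of the small subunit and Rpl15 and Rpl21 of the large subunit. No share of all genes was taken per 1000 ribosomal protein UMIs, so the counts of 10 and 5 members cannot be set against all genes. On that scale the members divide a fixed total, so a larger part for some requires a smaller part for others. All classes come from the same 2 libraries, so 12 classes are not 12 replicates.

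Rps6, the ribosomal protein phosphorylated by S6 kinase, took 4.22 to 7.02 per 1000 in the classes of the ZnDPA@siIRF5 library and 3.21 to 5.997 in those of the control library. In macrophage-like cells it took 5.07 and 4.22, in monocyte-like cells 5.22 and 3.76, in T cell-like cells 4.87 and 3.90, in B cell-like cells 4.22 and 3.21 and in neutrophil-like cells 4.51 and 3.57. The median log2 ratio over classes was 0.32, and it ran between 0.23 and 0.47. Rpl35, a protein at the exit of the peptide tunnel, had the same median, 0.32, and a range of 0.23 to 0.46. It took 4.12 and 3.39 per 1000 in macrophage-like cells, 3.54 and 2.85 in T cell-like cells and 2.28 and 1.66 in neutrophil-like cells. Rps23 of the decoding site had a median of 0.23 and Rpl37a one of 0.22.

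On the lower side Rps4x, the X-linked gene of Rps4, had a median of -0.17 per class, with 19.6 per 1000 in macrophage-like cells of the ZnDPA@siIRF5 library and 22.0 in those of the control library, and 19.1 and 22.2 in T cell-like cells. Rpl21 had a median of -0.13. Across the 77 core genes the median ratio had a Spearman's rho of -0.41 with the gene's UMIs, -0.29 with its transcript length and -0.17 with its GC content, as descriptions of genes of 1 pair of libraries.

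**Figure D5:**
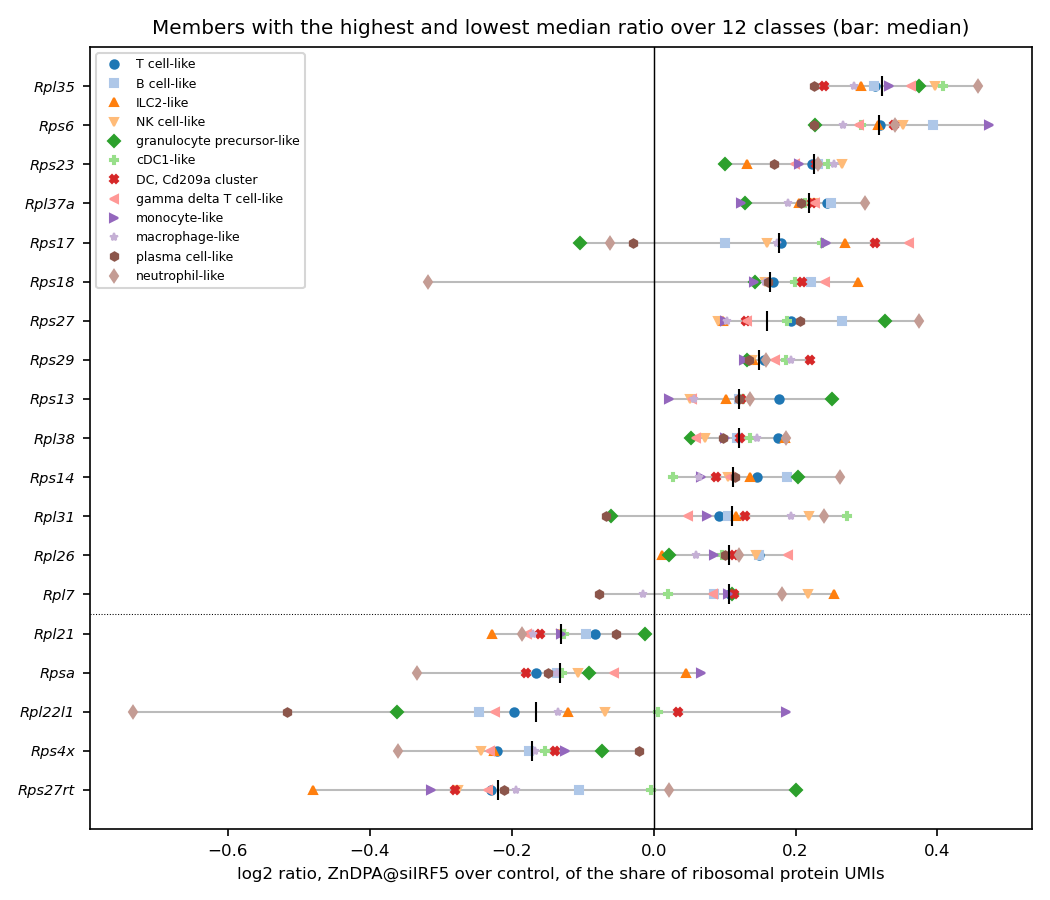
Log2 ratio, ZnDPA@siIRF5 over control, of each gene's share of ribosomal protein UMIs (x axis) in 12 classes (symbols) for the 14 genes with the highest and the 5 with the lowest median (black bar). Rpl35, Rps6, Rps23 and Rpl37a lie right of 0 in 12 of 12 classes and Rps4x left of 0 in 12 of 12.

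The lowest single ratios lay in neutrophil-like cells, and the higher ones were spread over several classes. In CPM, Rpl35 had a log2 ratio of 0.50 in cDC1-like cells, and Rps6 had log2 ratios of 0.49 (0.42 to 0.57) in monocyte-like cells, with 640 CPM in the ZnDPA@siIRF5 library and 455 CPM in the control library, and 0.49 (0.43 to 0.55) in B cell-like cells. In T cell-like cells Rps6 and Rpl35 were at 0.34 each and Rpl37a at 0.27. In macrophage-like cells the 3 highest were Rps27l at 0.31 (0.24 to 0.38), Rpl7l1 at 0.30 (0.10 to 0.51) and Rpl35 at 0.30 (0.24 to 0.37), and the 3 lowest were Rps27rt at -0.17, Rpl21 at -0.15 and Rps4x at -0.15. In plasma cell-like cells Rps24 was at 0.43 (0.41 to 0.46), with 3261 and 2413 CPM, and Rpl22l1 at -0.32 (-0.41 to -0.23). Rpl22l1 was also the lowest in neutrophil-like cells, at -0.80 (-1.07 to -0.53) with 38.6 and 67.2 CPM, followed by Rpl12 at -0.67 and Rpl3 at -0.61. With at most 1 UMI of foreign markers Rpl22l1 stood at -0.56 (-0.93 to -0.19) there, while Rpl12 was at 0.14 (-0.17 to 0.47) and Rpl3 at 0.26 (-0.07 to 0.61). Over all neutrophil-like cells Rpl3l had the highest ratio, 0.53 from 64 and 28 UMIs, but its interval of -0.13 to 1.23 held 0. Rpl3l was below the minimum of 20 CPM, and the highest member that met it was at 0.39.

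Proteins of the ribosome that the naming rule does not reach differed among themselves in neutrophil-like cells. Rack1, a scaffold on the small subunit, ranged 13.4-fold between T cell-like and neutrophil-like cells, with 99.2 CPM in neutrophil-like cells of the ZnDPA@siIRF5 library and 111 CPM in those of the control library, and 1480 and 1352 CPM in T cell-like cells. Fau, which gives a ubiquitin-like protein and a small subunit protein, kept 2793 and 2644 CPM there, above the 2438 and 2592 CPM of macrophage-like cells. Rack1 was at 727 and 678 CPM in macrophage-like cells, above its neutrophil-like level.

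Other translation genes whose messages carry a TOP tract were low in the same class. Npm1, a nucleolar chaperone, averaged 28.1-fold higher in granulocyte precursor-like than in neutrophil-like cells, with 35.3 and 58.1 CPM in neutrophil-like cells. Eif3e, an initiation factor subunit, ranged 18.8-fold, Hnrnpa1 18.5-fold and the elongation factor gene Eef1g 16.4-fold, each lowest in neutrophil-like cells. Of 20 such genes, 0 of 20 measured in T cell-like and macrophage-like cells were past 1.2-fold between the libraries in either direction. Of all genes, 7.17% were higher in the ZnDPA@siIRF5 library and 7.65% lower in T cell-like cells, and 13.9% and 8.56% in macrophage-like cells. In plasma cell-like cells 7 of 20 were higher and 0 lower, against 17.3% and 14.3% of all genes. In neutrophil-like cells 1 of 17 measured was higher and 2 lower, against 22.6% and 11.7% of all genes.

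Genes of ribosome assembly lay on the other side of 0 from the ribosomal proteins in B cell-like cells. There 12 of 19 measured were past 1.2-fold lower in the ZnDPA@siIRF5 library and 0 higher, against 14.9% and 7.81% of all genes. Their median log2 ratio was -0.29, beside 0.09 for the ribosomal proteins and -0.04 for all genes. Nop10, a small nucleolar ribonucleoprotein, stood at 299 CPM in the ZnDPA@siIRF5 library and 362 CPM in the control library, Ncl, nucleolin, at 327 and 373 CPM, and the rRNA methyltransferase Fbl at 100 and 122 CPM. In T cell-like cells 18 of 19 were below 0 and 4 past 1.2-fold lower, against 7.65% of all genes, with a median of -0.14. In macrophage-like cells 1 of 12 was past 1.2-fold in each direction, against 13.9% of all genes higher and 8.56% lower. Of 9 regulators listed, among them Myc, Mtor and Larp1, 6 were measured in macrophage-like cells, with 2 higher and 1 lower past 1.2-fold, and Rps6kb1, an S6 kinase, stood at 52.1 and 60.7 CPM.

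Mitochondrial ribosomal proteins form a separate set, also encoded in the nucleus. In macrophage-like cells 47 of 52 measured were above 0 and 10 past 1.2-fold higher in the ZnDPA@siIRF5 library, against 13.9% of all genes, with a median log2 ratio of 0.15, beside 0.02 for the cytosolic members and 0.04 for all genes. In granulocyte precursor-like cells 60 of 72 were below 0 and 25 past 1.2-fold lower, against 13.2% of all genes, with a median of -0.21, beside 0.14 for all genes. Mrpl33, with the widest range of this list, was highest in neutrophil-like cells, at 566 and 430 CPM, against 136 and 101 CPM in macrophage-like cells.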

How the data were processed

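The deposited values were UMI counts per gene and barcode, 1 matrix per library, made by the authors with Cell Ranger 3.1.0 and the mm10 build, with Seurat 4.4.0 also named, per the submitters' processing notes. The software named per the file headers is cellranger 7.2.0, and whether intronic reads were counted is not stated. The labels' protocols name a 10x 3′ kit. The members and every list here were chosen with earlier results of these data known. Barcodes with at least 500 genes and at most 15% mt- UMIs were kept, and Scrublet calls (rate of 0.8% per 1000 cells) were left out of the classes. Counts without the 86 genes were scaled to 10000, and 2000 variable genes, 30 components, 15 neighbours and Leiden resolution 1 gave clusters, named from marker lists (Python 3.11.15, scanpy 1.11.5, numpy 2.4.6, pandas 2.3.3, scipy 1.17.1). Shares, CPM and ratios were taken from counts summed per class. Intervals of 95% are exact binomial ones and hold counting error alone. No test was made between single libraries, and a member was counted past 1.2-fold when it had at least 50 UMIs and 20 CPM in 1 library. The ratio step was tested on simulated counts.

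Named genes were the 10 members with most UMIs, the 8 with the widest and 4 with the narrowest range across classes, the 3 highest and 3 lowest ratios in 6 classes, the paralogs, and up to 4 genes of each related list. Rps18, Rps27a, Rpl37, Rpl41, Rps29, Rps23 and the genes with 1 direction in every class were picked after their values were seen. Some genes that the rule names are not reported here. Alternatives covered the filters, doublet calls, denominator, clustering resolution, class weights, depth, fold and minimum count.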

Additional observations from a re-analysis of the deposited data

Results flagged for a closer look

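Differences between the libraries that had opposite signs in different classes are given as values, and none of these differences between classes was tested. The log2 ratio of ribosomal protein share, ZnDPA@siIRF5 over control, was -0.023 in granulocyte precursor-like cells and -0.066 in neutrophil-like cells, where the other 10 classes were above 0, with 0.19 in plasma cell-like cells.

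Rps18, a small subunit protein, had a log2 CPM ratio of -0.38 in neutrophil-like cells, against 0.32 in B cell-like, 0.37 in ILC2-like, 0.29 in cDC1-like, 0.27 in DC of the Cd209a cluster, 0.31 in gamma delta T cell-like and 0.35 in plasma cell-like cells. Rps20, of the small subunit head, was at -0.47 in neutrophil-like and 0.29 in plasma cell-like cells. Rpl4, of the large subunit, was at -0.34 in neutrophil-like and 0.31 in gamma delta T cell-like cells. Rpl36a, of the large subunit, was at -0.41 in neutrophil-like, 0.40 in ILC2-like and 0.31 in plasma cell-like cells. Neutrophil-like cells also held T cell, B cell and plasma cell markers at lower levels in the ZnDPA@siIRF5 library than in the control library. In those with at most 1 UMI of these markers the neutrophil-like ratios had the other sign: 0.53 (0.27 to 0.79) for Rps18, 0.15 (-0.02 to 0.33) for Rps20, 0.09 (-0.26 to 0.45) for Rpl4 and 0.13 (-0.24 to 0.51) for Rpl36a.

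In the barcodes that the filters removed, which no class holds, 4 of the 10 members that were higher in every class had an interval above 0 per ribosomal protein UMI, ZnDPA@siIRF5 over control. The log2 ratio there was 0.31 for Rpl37a, 0.27 for Rps27, 0.40 for Rpl38 and 0.40 for Rps29. Rps6 was at 0.11 (-0.31 to 0.52). Members without that pattern were as high, with 0.47 for Rpl23a, 0.45 for Rps28, 0.44 for Rps9 and 0.35 for Rpsa. Their intervals were also above 0, as were those of Rpl7, Rpl35a, Rps27a and Rpl41. Intervals below 0 were those of Rps20, Rpl22, Rpl23, Rps15a, Rpl21 and Rps4x. In 1 of the unnamed clusters Rps6 was at -0.35, Rpl26 at -0.38 and Rps14 at -0.27. These barcodes come from the same libraries.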

How the results depend on the processing

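No paired analysis was possible because each group had 1 library. The whole-library log2 ratio of ribosomal protein share, -0.013, was -0.18 without immunoglobulin UMIs, -0.015 without mt- UMIs, -0.28 for the median over cells, -0.023 with doublet calls removed and -0.011 without paralogs. It was 0.019 with at least 1000 genes, 0.039 with at most 5% mt- UMIs and 0.063 with the same class weights in both libraries. Of 144 class ratios under alternatives, 69 moved by less than their counting interval, 64 moved further and 11 changed sign. The neutrophil-like ratio was 0.19 for the median over cells, 0.038 with doublet calls kept, 0.068 in cells with 2000 to 8000 UMIs and 0.20 with at most 1 UMI of other lineages' markers. The granulocyte precursor-like ratio, -0.02 over all its cells, was 0.21 in cells with 2000 to 8000 UMIs. It was 0.81 with at most 1 UMI of other lineages' markers, but -0.20 with the same cluster weights and -0.09 for the median over cells. Shallow cells meet that marker limit more readily, and the numbers of cells kept are not given for this class or those below. Of granulocyte precursor-like cells, 22 in the ZnDPA@siIRF5 library and 3 in the control library had under 2000 UMIs. The monocyte-like ratio was -0.066 with at most 1 UMI of other lineages' markers and -0.017 at resolution 2. The cDC1-like ratio was -0.23 in cells with 2000 to 8000 UMIs. At resolution 2 the NK cell-like ratio was -0.0088, but the NK cell name there also covered a further cluster of 151 and 276 cells. That cluster scored 1.35 for NK cells and 1.31 for T cells, so the ratio is not one of the same class. The ratio in DC of the Cd209a cluster, 0.06, was 0.42 with at most 1 UMI of other lineages' markers, under the same limit of depth. At resolution 2 the migratory DC name covered 65 and 52 cells, at -0.0061, so that value is not one of the same class. The cause was not tested in any of these. The plasma cell-like ratio stayed above 0, between 0.17 and 0.84. Over the 12 classes 85 member ratios were past 1.2-fold higher and 26 lower, 8.60% and 2.63% of 988, beside 17.7% and 12.9% of the ratios of all genes. Members and all genes were not matched for abundance. As shares of ribosomal protein UMIs, 38 member ratios were higher and 27 lower, and at a fold of 1.5, which is stricter by construction, 0 were higher and 3 lower. No share of all genes was taken at either of these settings, so these counts cannot be set against all genes. The neutrophil-like subunit ratio was 0.941 with doublet calls kept, in the ZnDPA@siIRF5 and the control library alike, and averaged 0.880 over the libraries without its 3 most abundant genes of each subunit. Without the cycling cluster the plasma cell-like ratio was 0.52, and 0.32 with immunoglobulin UMIs also left out. The neutrophil-like cells with few foreign markers, the plasma cell-like cells without the cycling cluster and the subunit ratio without its own most abundant genes were chosen after seeing the data. The counts limit scarce members such as Rpl3l, and a single library per group limits every difference.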
